A study of Solanum lycopersicum with 18 samples.

Results

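This report describes 76 probe sets of the Affymetrix tomato array whose signal rose from 35 to 45 DAP in fruit of wild type and also in fruit of the ripening mutant rin. They were chosen by their measured values. Controls with the AFFX prefix were left out, signals under 32 were raised to 32, the log2 values of the 3 arrays of a group were averaged, and a probe set was taken when 45 minus 35 DAP was 2 or more (a fold of 4 or more) in each genotype. The 76 are 0.752% of the 10101 probe sets of the array. A rise of that size was seen for 285 probe sets in wild type (2.82%) and for 120 in rin (1.19%), so the 76 make up 26.7% of the wild-type risers and 63.3% of the rin risers. The rises themselves were used in the choice and are given as a description with no test.

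Pericarp, the fleshy wall of the fruit, was sampled from tomato (Solanum lycopersicum) of the variety Pusa Ruby, which all groups share. There were 6 groups of 3 arrays: wild type and the rin mutant, each at 35, 40 and 45 DAP, which the labels spell out as days after planting and name immature green, breaker and red-ripe fruit in both genotypes. No agent, transgene or reporter is named for any group. The labels number plants 1 to 3 and call the arrays biological replicates. Codes in the sample titles differ within each group but recur across ages, so arrays of different ages may share a plant, which the main fit does not model. The p-values use 1 estimate of the spread between arrays of a group, shared by all 6 groups, and that spread may be partly technical. The growth and treatment notes speak of seedlings and shoot tissue, so the groups were taken from titles, source names and characteristics.

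Tomato is a climacteric fruit, in which ripening is accompanied by a burst of the gaseous hormone ethylene. Ethylene binds receptors that repress signalling until it is bound, and the signal ends in transcription factors that turn on genes for softening, red pigment and aroma. The MADS-box factor RIN and the NAC-domain factor NOR act high in this programme, and rin fruit, which carries a lesion at the RIN locus, stays firm and fails to turn red.

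The label of the mutant was checked with RIN, whose signal lay between 62.5 and 6929 on the 9 wild-type arrays and between 5.11 and 9.27 on the 9 rin arrays. All 9 rin values were dim, which here means at or below the 30th percentile of their own array (a signal of 11.3 to 15.4). Array medians lay between 76.5 and 87.8. The log2 ratio of 3' to 5' probe sets over 6 tomato control transcripts, a sign of RNA quality, lay between 0.36 and 1.09 except on replicate 2 of rin at 35 DAP (1.84). No list of genes that define pericarp was drawn up. The seed list held 1 measured gene, MAN2, which was dim on every array, while the summed signal of 3 epidermis and cuticle genes was 7178 to 22390 in the 5 other groups and 911 to 2878 in wild type at 45 DAP. The summed signal of the 8 genes of the photosynthesis list was 9943 to 19150. That list also holds DFR, a gene of the flavonoid list, so the sum is not of photosynthesis genes alone. The sum was 4308 to 6476 for 3 vascular genes and 17.0 to 545 for 3 genes of locular gel and parenchyma. The part of changing tissue makeup in the rises was not tested, and fewer cells of a type and less RNA per cell cannot be told apart in these bulk samples.

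Replicates of rin differed from each other in the 76 probe sets. The median signal over the probe sets was 543, 124 and 65.7 on replicates 1, 2 and 3 of rin at 40 DAP, and 1162, 474 and 493 on those at 45 DAP. Replicate 1 was the highest of the 3 arrays at 40 DAP for 68 of the 76, while it was highest for 37.9% of the 7717 probe sets bright enough to be tested. Replicate 3 was the lowest at 40 DAP for 55 of the 76, against 29.0% of those tested. At 45 DAP replicate 1 was highest for 55 (51.5% of those tested) and lowest for 20 (33.3%), and 53 of the 76 were highest on replicate 1 at both ages. The title code of replicate 1 differs between these ages, while the codes of replicates 2 and 3 recur. The labels thus do not settle whether a replicate number marks a shared plant. Replicates 2 and 3 of rin at 45 DAP were close to each other (r = 0.996 across all probe sets, which are not independent replicates). Where leaving out 1 array at 40 DAP moved a called difference of the 22 probe sets named by rule by over 1.5 times as a fold, the value without it is given beside the result.

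In most of the 76 the rise was larger in wild type. There the median signal over the 76 probe sets was 81.1, 86.1 and 134 on the arrays at 35 DAP, and 2304, 1921 and 2097 at 45 DAP. The rin arrays gave 66.4, 34.4 and 72.9 at 35 DAP. The lowest of these, replicate 2, is the array with a log2 3' to 5' ratio of 1.84, and low values there enlarge the rises in rin. The median rise was 3.52 on the log2 scale in wild type (range 2.02 to 9.31), an 11.4-fold change, and 2.58 in rin (range 2.01 to 7.11), a 5.99-fold change. The rise was larger in wild type for 58 probe sets and larger in rin for 18. Taking for each probe set the smaller of its rises, 41 lay under 2.5 and 11 reached 4 or more, and these 11 comprise PG2, Man4, AAT, NP24-I, HSP21, NOR and 5 probe sets without a gene symbol.

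**Figure D1:**
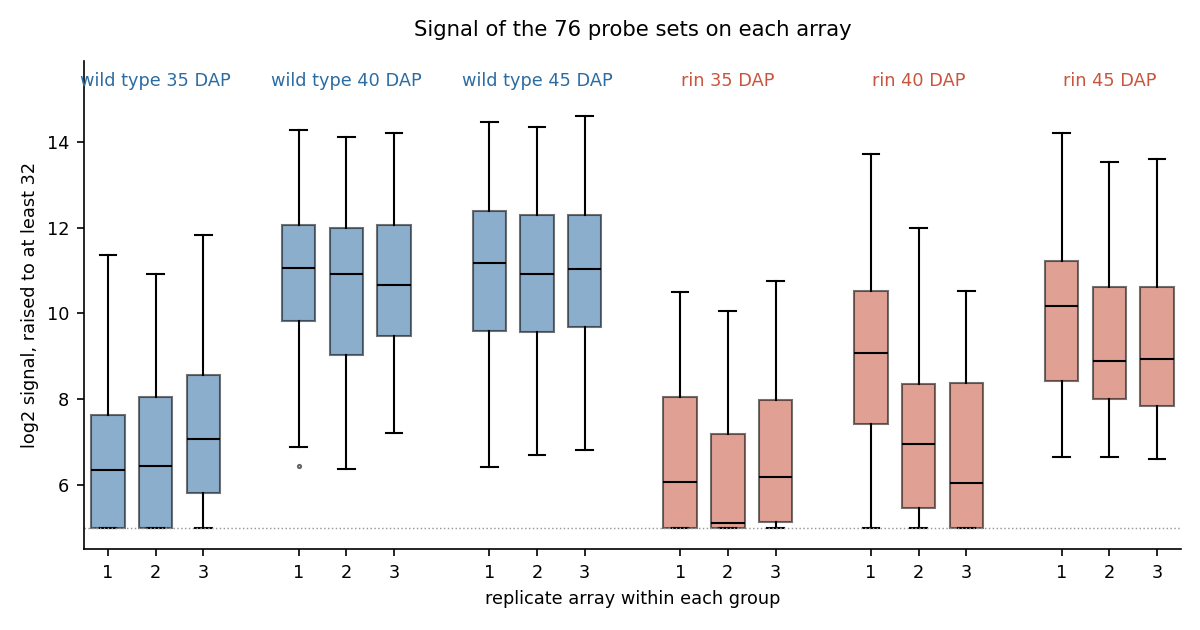
Signal of the 76 probe sets (log2, raised to at least 32, dotted line) on each of the 18 arrays, in boxes of median and quartiles with whiskers to the furthest value within 1.5 box lengths. Wild type is high on all arrays at 40 and 45 DAP, whereas in rin replicate 1 at 40 DAP (median signal 543) stands above replicates 2 and 3 (124 and 65.7).

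The probe sets nearest the threshold show where the choice fell. Just inside lay LesAffx.4785.1.S1_at with a smaller rise of 2.01, LesAffx.70264.1.S1_at with 2.02 and Les.2403.1.S1_at with 2.02. Just outside lay LesAffx.44422.1.S1_at and LesAffx.65901.1.S1_at, whose smaller rises round to 2.00, and DDTFR8 with 1.98. When each of the 12 arrays at 35 and 45 DAP was left out of the choice in turn, 43 of the 76 were chosen every time and no probe set fewer than 8 times.

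The rule was also applied without a whole replicate number, and the rise was read in the arrays left out. Without replicate 1 it chose 59 probe sets, of which 57 were higher at 45 DAP in both genotypes in the arrays left out and 41 rose there by 2 or more in both (1.11% of all probe sets did). Without replicate 2 it chose 79, of which 75 were higher in both and 43 rose by 2 or more (0.861% of all). Without replicate 3 it chose 91, of which 90 were higher in both and 39 rose by 2 or more (0.485% of all). The median rise in the arrays left out was 2.88 to 4.14 in wild type and 2.25 to 3.17 in rin. Title codes recur across ages within a genotype, so the arrays left out may share plants with those kept, and these counts are a description.

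**Figure D2:**
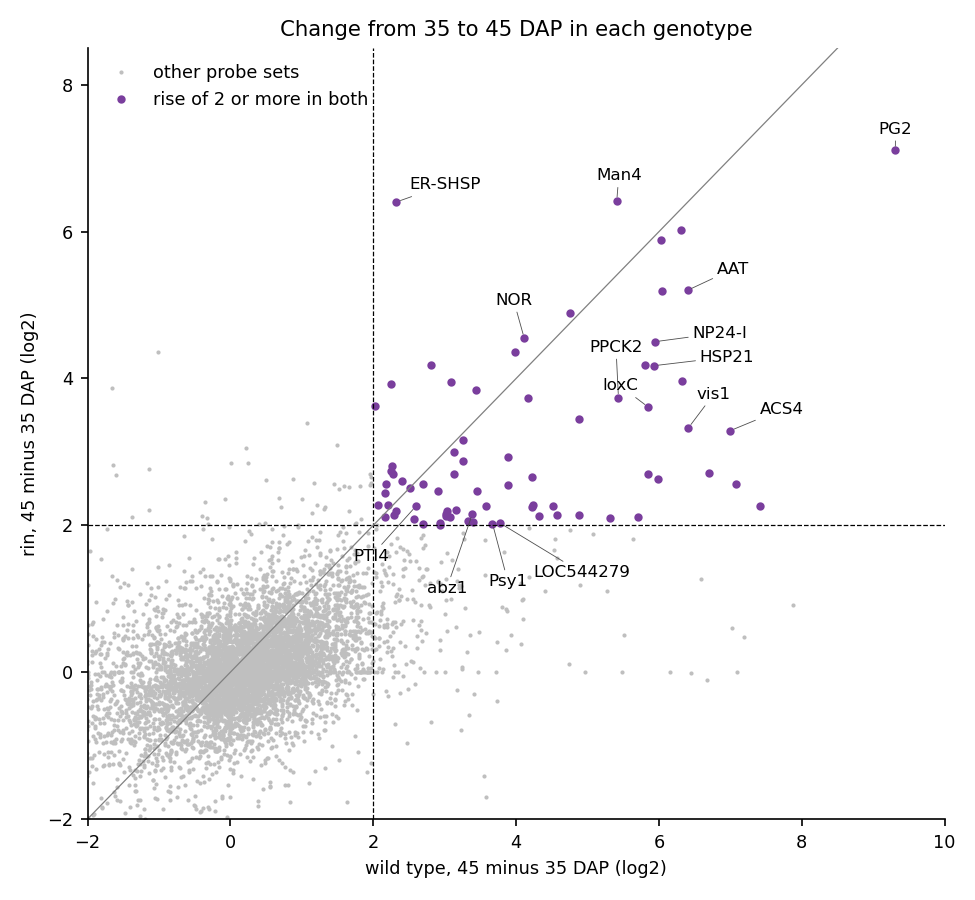
Change from 35 to 45 DAP (log2 of signals raised to at least 32, mean of 3 arrays) in wild type and in rin for the array's probe sets between -2 and the upper ends of the axes, with the 15 named probe sets labelled. Dashed lines mark the rule's threshold of 2 and the grey line equal change. The purple points are the 76 chosen ones, 58 of them below the line of equal change, and ER-SHSP is the one furthest above it.

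At 40 DAP most of the rise was complete in wild type and under way in rin. In wild type the 76 probe sets had reached a median of 94.1% of their rise (log2) at 40 DAP, with quartiles of 81.9% and 101%, and 74 of them had passed 50%. In rin they had reached a median of 39.6%, with quartiles of 20.3% and 56.2%, and 27 had passed 50%. The share was larger in wild type for 70 of 76. By array, the median share was 97.9%, 85.5% and 93.9% on the wild-type arrays at 40 DAP and 89.2%, 18.9% and 1.59% on those of rin. The wild-type arrays were thus close together, while the rin value was set by which array was read, and it was 14.6% without replicate 1 and 58.5% without replicate 3. These shares use the arrays of the choice, and the difference in share was not tested.

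The steps between ages were also counted. All 40 DAP arrays lay above all 35 DAP arrays for 76 of 76 in wild type, against 23.9% of the probe sets tested, and for 15 of 76 in rin, against 6.70%. The rule used the 35 DAP arrays and so favoured probe sets low at that age, and nothing is read from these counts against the shares. Between 35 and 40 DAP 75 rose by 1 or more on the log2 scale in wild type and 42 in rin. Between 40 and 45 DAP 14 rose by 1 or more in wild type, 58 stayed within 1 and 4 fell by 1 or more, namely Man4, ER-SHSP, Les.672.1.S1_at and Les.2810.2.S1_at. Over the same step 62 rose by 1 or more in rin, 14 stayed within 1 and none fell that far. The rule also used the 45 DAP arrays and so favoured probe sets high at that age. No count over all probe sets is given for the steps of 1 or more, and nothing is read from them. In 6 probe sets, all without a symbol, the share reached at 40 DAP was larger in rin.

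**Figure D3:**
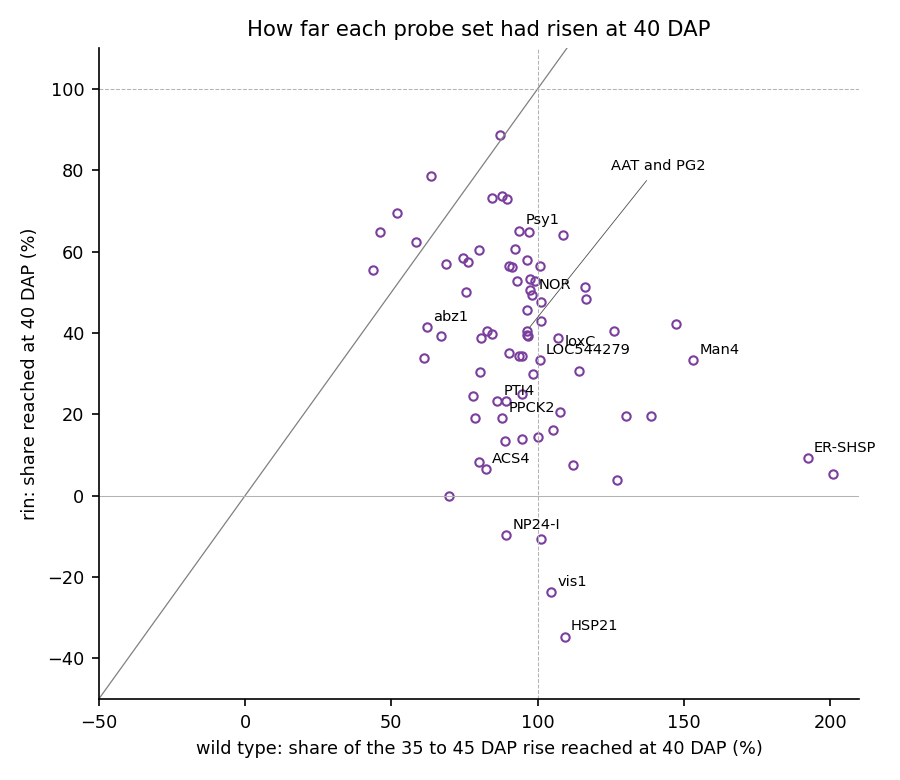
Share of the 35 to 45 DAP rise (log2) that each of the 76 probe sets had reached at 40 DAP, in wild type (horizontal) and rin (vertical), as means of 3 arrays. Points under the diagonal, 70 of 76, had gone further in wild type, and the 4 points under 0 in rin include HSP21, vis1 and NP24-I.

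The genotypes were compared at 40 DAP, the age whose arrays took no part in the choice. The spread, however, was estimated from all 18 arrays, 12 of which made the choice. The median log2 standard deviation over the 76 was 1.26 in rin and 0.467 in wild type at 40 DAP, and 0.625 and 0.309 at 45 DAP. The shared estimate may be too small for rin at 40 DAP. The rule also asked for a rise in wild type, most of which was present at 40 DAP. The choice may thus favour probe sets lower in rin at 40 DAP, and the shares of all those tested are set beside the counts as a description. All 76 probe sets were lower in rin, while 46.5% of all those tested had a difference below 0. Of the 76, 56 (73.7%) were called lower at an adjusted p under 0.05 (limma over 7717 probe sets, 2-sided, Benjamini-Hochberg), where 10.8% of all those tested were called lower. None was called higher, against 15.1% of those tested, and none had a difference above 0 at any p. The median difference, rin minus wild type, was -2.99 on the log2 scale (range -8.37 to -0.45), and over all those tested it was 0.07. The 20 not called had differences of -3.11 to -0.45 and adjusted p-values of 0.0505 to 0.597. When only the 6 arrays at 40 DAP were fitted, 40 of the 76 were called lower. All 76 passed the filter on dim probe sets and none had a dim wild-type array at 40 DAP, while 21 had at least 1 dim rin array and none had 3.

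Leaving out single rin arrays moved this count. It was 68 without replicate 1 of rin at 40 DAP, 49 without replicate 2 and 42 without replicate 3, and the median difference was -3.73, -2.83 and -2.39 in turn. Among the 209 probe sets that rose by 2 or more in wild type alone, 163 (78.0%) were called lower in rin at 40 DAP and none higher, with a median difference of -1.78. Among the 44 that rose in rin alone, 11 (25.0%) were called lower and 1 higher, with a median of -1.05. The differences between these shares were not tested. Of the 15 probe sets with a gene symbol 12 were called lower, and of the 61 without one 44 were.

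**Figure D4:**
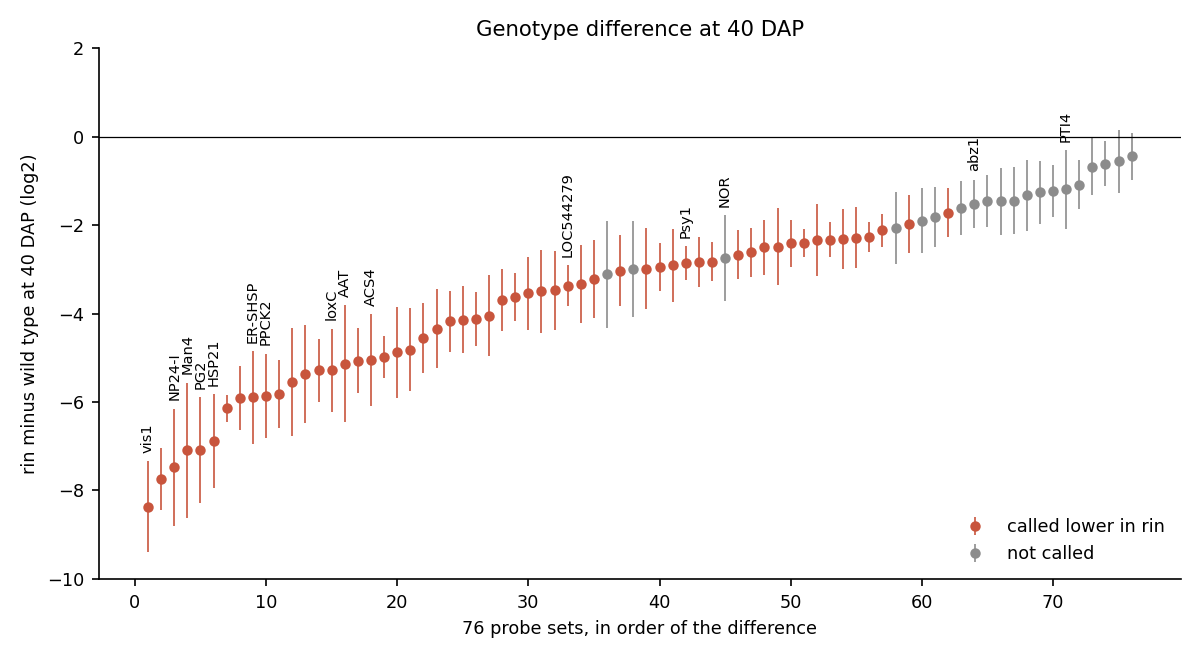
Difference between rin and wild type at 40 DAP (log2, limma estimate with its standard error as bars) for the 76 probe sets in order of size. The 56 called lower in rin are red and the 20 not called are grey, and no estimate lies above 0.

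A gene symbol in the platform annotation was held by 15 of the 76 probe sets (19.7%, against 9.00% of all probe sets), and all 15 matched a gene of the RefSeq table. Of these 15 genes, 12 fall into 8 of 20 lists of genes by function, chosen with earlier results of these data known, and 12 lists hold none. A difference below is always rin minus wild type at 40 DAP on the log2 scale, given with its standard error (SE) and the limma adjusted p. The difference uses the signals as deposited. Where a rin array lay under 32, the fold is given as "at least", from signals raised to 32, the floor of the rule.

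Ethylene synthesis was represented by ACS4, an isoform of 1-aminocyclopropane-1-carboxylate synthase, the enzyme that makes the precursor of ethylene. Its signal in wild type was 14.7, 6.40 and 39.3 at 35 DAP, 3812, 755 and 2243 at 40 DAP, and 4588, 3685 and 4990 at 45 DAP. In the mutant the values were 8.29, 25.0 and 158, then 245, 29.3 and 24.9, then 1008, 380 and 394. Wild type was high from 40 DAP on, and rin only at 45 DAP, with replicate 1 highest. The difference at 40 DAP was -5.05 (SE 1.03, adjusted p 0.00259), at least 29.5-fold lower in rin, and the arrays did not overlap. It was -6.11 without replicate 1 of rin, -4.46 without replicate 3 of rin and -5.70 without replicate 2 of wild type. Of the 10 genes of the list that were tested, 4 were called lower in rin and 2 higher, with a median difference of -1.67. The isoform ACS2 rose by 7.02 in wild type and by 0.60 in rin, so it is not among the 76.

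Ethylene perception and response was represented by LOC544279, listed with the synonym ETR3, the ethylene receptor known as Never-ripe, and by PTI4, an ethylene response factor first found as a partner of the resistance kinase Pto. The receptor's signal in wild type was 350, 217 and 372 at 35 DAP, 4877, 3747 and 4249 at 40 DAP and 4807, 4411 and 3466 at 45 DAP. The rin values were 258, 268 and 251, then 959, 217 and 341, then 2115, 820 and 675. At 40 DAP the difference was -3.37 (SE 0.46, adjusted p 0.000151), 10.3-fold lower in rin, with no overlap, and -3.97 without replicate 1 of rin. PTI4 was at 250, 203 and 317 in wild type at 40 DAP and at 379, 22.5 and 158 in rin, so the arrays overlapped. Its difference of -1.19 (SE 0.89, adjusted p 0.340) was not called. Of 26 genes tested in this list, 6 were called lower in rin and 4 higher, with a median difference of -0.10.

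Among the ripening regulators, NOR was the gene of the 76. Its signal in wild type was 75.8, 108 and 129 at 35 DAP, 3010, 1298 and 1212 at 40 DAP and 2203, 1722 and 1453 at 45 DAP. Signals in rin were 60.6, 9.65 and 77.1, then 1910, 79.8 and 103, then 2362, 895 and 903. Replicate 1 of rin at 40 DAP lay among the wild-type arrays, and replicates 2 and 3 were near the level at 35 DAP. The 40 DAP difference was -2.75 (SE 0.98, adjusted p 0.0505) and was not called, while without that replicate 1 it was -4.21 with an adjusted p of 0.000772. NOR is also among the 18 probe sets with a larger rise in rin (4.55) than in wild type (4.11). This order leans on replicate 1 of rin at 45 DAP (2362, against 895 and 903). It also leans on replicate 2 at 35 DAP (9.65), the array with a log2 3' to 5' ratio of 1.84. The order was not tested without these arrays. Of 6 regulators tested, 2 were called lower in rin, RIN and TDR4, and 1 higher, MADS1, and the median difference was -1.73.

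Another transcription factor, abz1, a bZIP protein described in tomato as induced by low oxygen, is in none of the lists. Its signal was 222, 147 and 149 in wild type at 40 DAP and 176, 27.8 and 42.6 in rin, where replicate 1 again lay among the wild-type arrays. At 45 DAP the wild-type arrays (368, 643 and 296) lay above those of rin (126, 172 and 153). The difference at 40 DAP was -1.52 (SE 0.54, adjusted p 0.0516) and was not called, and without replicate 1 of rin it was -2.30 with an adjusted p of 0.00130.

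**Figure D5:**
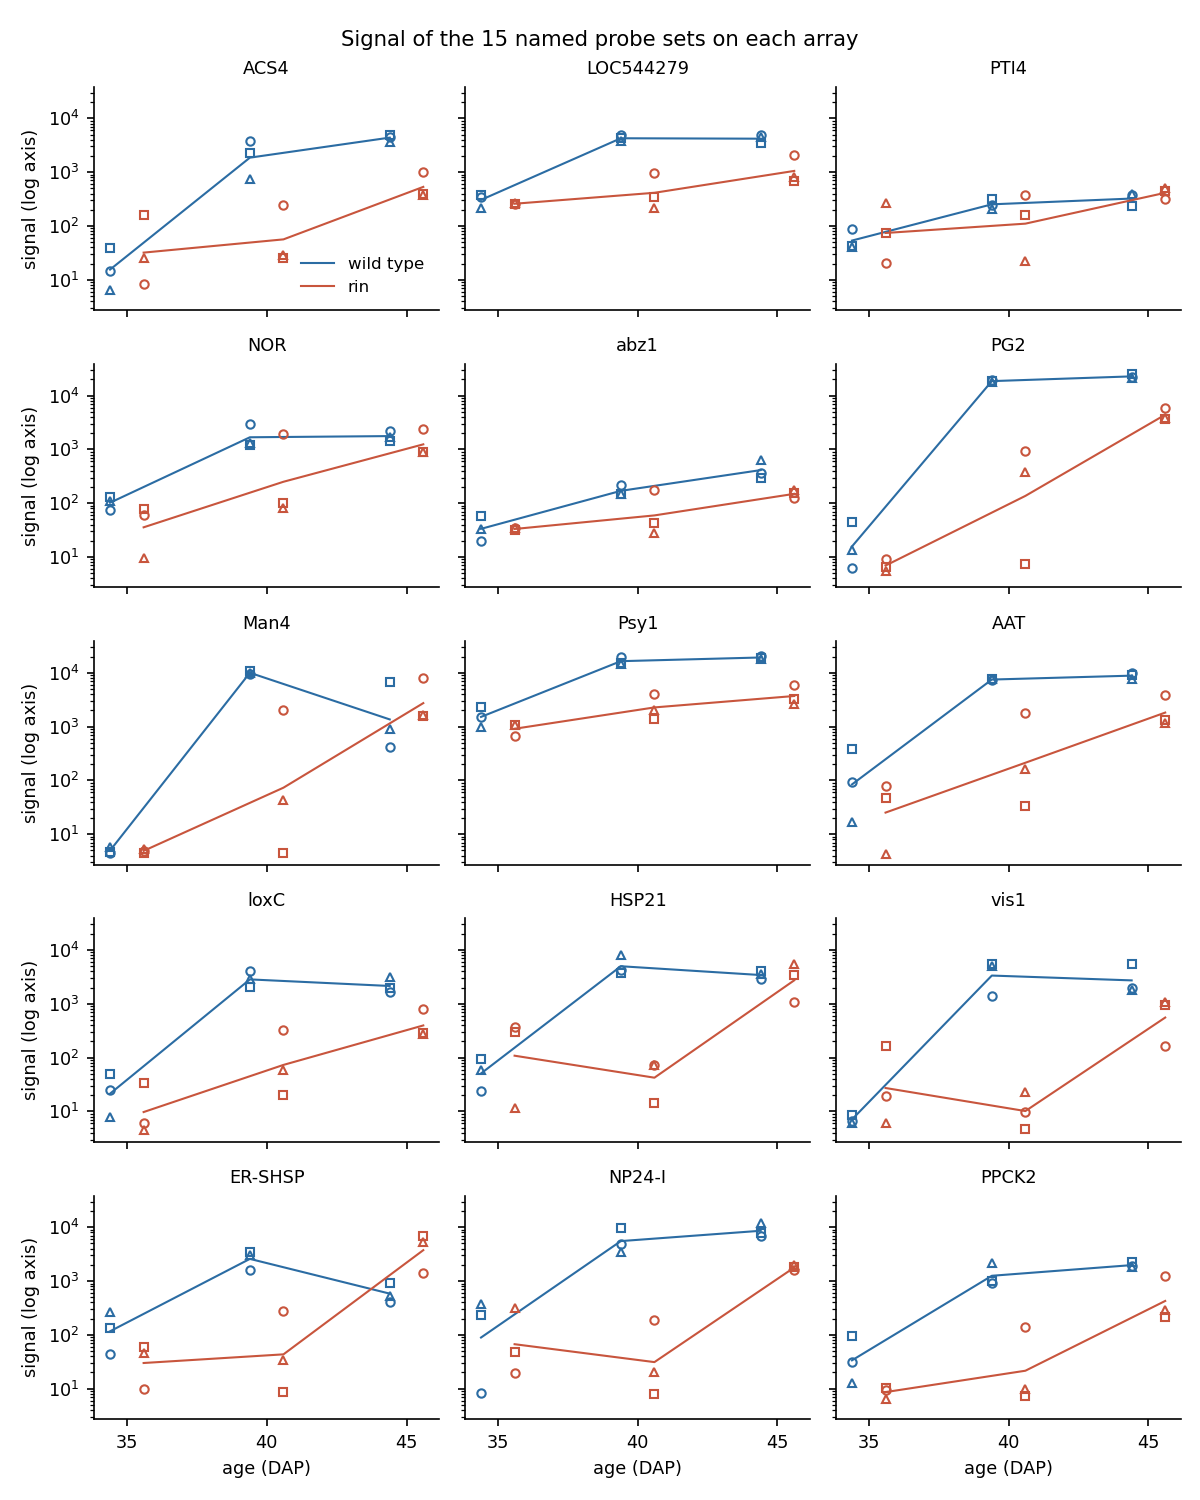
Signal (log axis) of the 15 named probe sets at 35, 40 and 45 DAP. Symbols are arrays (circle, triangle and square for replicates 1, 2 and 3) and lines join the geometric means of wild type (blue) and rin (red). At 40 DAP the wild-type arrays lie above those of rin except for NOR, abz1 and PTI4, and at 45 DAP ER-SHSP is higher in rin.

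Cell wall enzymes were among the probe sets with the largest rises in both genotypes. PG2, the polygalacturonase that cuts pectin in ripening fruit, had a signal in wild type of 6.33, 13.6 and 45.0 at 35 DAP, 19200, 17710 and 18850 at 40 DAP and 22470, 20930 and 25060 at 45 DAP. In rin it was 9.19, 5.58 and 6.45, then 915, 375 and 7.43, then 5949, 3906 and 3695. Every rin array at 45 DAP was far above those at 35 DAP, and still below every wild-type array of that age. At 40 DAP the difference was -7.09 (adjusted p 0.000701), at least 83.6-fold lower, and it was -8.46, -7.82 and -4.99 without replicates 1, 2 and 3 of rin in turn.

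Man4, an endo-beta-mannanase that acts on mannan of the cell wall, peaked at 40 DAP in wild type. Its signal there was 4.46, 5.85 and 4.69 at 35 DAP, 9313, 10080 and 10690 at 40 DAP and 412, 891 and 6856 at 45 DAP, when the arrays differed widely. For rin the arrays read 4.92, 5.30 and 4.51, then 2026, 43.5 and 4.46, then 7957, 1642 and 1562. At 45 DAP the genotypes overlapped. The 40 DAP difference was -7.10 (SE 1.53, adjusted p 0.00354), at least 70.9-fold lower, but the adjusted p was 0.0640 when only the 6 arrays at 40 DAP were fitted. It was -9.49 without replicate 1 of rin and -5.08 without replicate 3. The probe set is of a type that can hybridise with related transcripts. Of 24 cell wall genes tested, 7 were called lower in rin at 40 DAP and 3 higher, with a median difference of -0.38, and 8 rose by 2 or more in wild type from 35 to 45 DAP but 3 in rin.

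Of the carotenoid genes, Psy1, the fruit phytoene synthase that commits isoprenoids to red pigment, was the one that met the rule. Its signal in wild type was 1527, 970 and 2351 at 35 DAP, 19950, 14610 and 15290 at 40 DAP and 20610, 18370 and 18910 at 45 DAP. The mutant gave 659, 1068 and 1077, then 4062, 2079 and 1391, then 5816, 2651 and 3302. It was already bright at 35 DAP in both genotypes, and its rise in rin (2.02) lay just over the threshold. The difference at 40 DAP was -2.86 (SE 0.38, adjusted p 0.000137), 7.24-fold lower in rin. A further probe set of this gene, Les.3171.4.A1_at, was dim on all rin arrays and near the floor in wild type at 40 DAP (51.5, 46.2 and 18.9), so only a bound of at least 1.32-fold can be given (adjusted p 9.55e-05). Another, Les.44.1.S1_at, was dim on every array and was not tested. Of 16 genes of carotenoid and isoprenoid synthesis, 5 were called lower in rin at 40 DAP and none higher, with differences of the 5 from -2.86 to -0.82, and the median was -0.26.

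The aroma genes among the 76 were AAT and loxC. AAT is listed with the synonym AAT1, a name used in tomato for an alcohol acyltransferase that forms volatile esters. The other, loxC, is a lipoxygenase of the route from fatty acids to aroma aldehydes and alcohols. AAT had a signal in wild type of 94.0, 16.6 and 382 at 35 DAP, 7216, 7530 and 7745 at 40 DAP and 9873, 7830 and 8988 at 45 DAP. In rin it was 80.2, 4.22 and 47.3, then 1768, 161 and 34.0, then 3893, 1152 and 1351. The rin arrays at 40 DAP spread widely and all lay below wild type. The difference was -5.14 (SE 1.32, adjusted p 0.0102), 35.2-fold lower in rin. It was -6.66 without replicate 1 of rin, and -3.81 without replicate 3, when the adjusted p was 0.0613.

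The lipoxygenase loxC was at 4015, 2844 and 2018 in wild type at 40 DAP and at 331, 59.5 and 19.9 in rin, a difference of -5.28 (SE 0.94, adjusted p 0.00102) or at least 33.2-fold. Without replicate 1 of rin it was -6.37 and without replicate 3 it was -4.34. At 45 DAP it was at 1627, 3107 and 1957 in wild type and at 811, 271 and 284 in rin, again with no overlap. Of the 6 aroma genes tested, 4 were called lower in rin at 40 DAP and none higher, with a median of -1.28.

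Small heat shock proteins, chaperones that bind unfolding proteins, took 3 of the 15 named places. HSP21 is the chloroplast form, vis1 a gene linked to the viscosity of tomato juice, and ER-SHSP the form of the endoplasmic reticulum. In rin these genes were low at 40 DAP and high at 45 DAP. HSP21 had a signal in wild type of 23.5, 58.9 and 94.8, then 4175, 7963 and 3757, then 2838, 3535 and 4018. The rin arrays read 366, 11.8 and 298 at 35 DAP, 72.6, 74.3 and 14.1 at 40 DAP and 1095, 5457 and 3432 at 45 DAP, so its mean (log2) fell below the 35 DAP mean before it rose. At 40 DAP the difference was -6.88 (SE 1.06, adjusted p 0.000343), at least 89.8-fold, and -6.09 without replicate 3 of rin.

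Vis1 and ER-SHSP were also lower in rin than in wild type on every array at 40 DAP. Vis1 was at 1374, 5082 and 5401 in wild type at that age and at 9.62, 23.1 and 4.70 in rin, where 2 arrays were dim. Its difference of -8.37 (SE 1.02, adjusted p 6.26e-05), at least 105-fold, was the largest fitted difference of the 76, and it was -8.96 without replicate 2 of rin and -9.01 without replicate 1 of wild type. In rin at 45 DAP it reached 165, 1103 and 946, below the wild-type arrays (1965, 1838 and 5616). ER-SHSP in wild type was at 45.0, 263 and 134, then 1613, 3047 and 3504, then 411, 522 and 929, a peak at 40 DAP. In rin the signal was at 9.91, 45.1 and 60.3, then 276, 33.8 and 8.77, then 1427, 5292 and 7000.

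ER-SHSP was thus at least 38.7-fold lower in rin at 40 DAP (difference -5.90, SE 1.05, adjusted p 0.000999) and higher in rin on every array at 45 DAP, by 6.43-fold as a description. The difference was -7.23 without replicate 1 of rin at 40 DAP and -4.74 without replicate 3. Replicate 1 of rin at 45 DAP was the lowest of its group for the 3 chaperones and for NP24-I, PTI4 and abz1, and the highest for PG2, Man4, AAT, loxC, ACS4, NOR, Psy1, PPCK2 and LOC544279. The heat shock list held 2 genes, HSP21 and vis1, both called lower in rin at 40 DAP, with a median difference of -7.63.

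Of the defence list, NP24-I, an osmotin-like protein of the thaumatin family that accumulates in ripening tomato, was among the 76. Its signal in wild type was 8.27, 368 and 233, then 4914, 3521 and 9792, then 6834, 11770 and 7927. Rin values were 19.6, 319 and 48.1, then 192, 20.2 and 7.79, then 1573, 1989 and 1824. The rin arrays were close together at 45 DAP, all below wild type, and spread widely at 40 DAP. The 40 DAP difference was -7.47 (SE 1.32, adjusted p 0.000987), at least 95.2-fold, and it was -8.79 without replicate 1 of rin and -6.47 without replicate 3. Of 10 defence genes tested, 5 were called lower in rin at that age and none higher, with a median of -2.63.

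PPCK2, a kinase that activates phosphoenolpyruvate carboxylase and is in none of the lists, was lower in rin than in wild type at 40 and 45 DAP. Its signal in wild type was 31.7, 12.8 and 93.8 at 35 DAP, 923, 2153 and 990 at 40 DAP and 1922, 1794 and 2245 at 45 DAP. In rin it was 9.51, 6.46 and 10.4, then 140, 9.78 and 7.28, then 1232, 291 and 217. The genotypes did not overlap at 40 or 45 DAP, while at 35 DAP all arrays but replicate 3 of wild type lay under 32. The difference at 40 DAP was -5.86 (SE 0.95, adjusted p 0.000548), at least 23.9-fold, and it was -7.22 without replicate 1 of rin and -5.08 without replicate 3.

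The 12 lists without a gene among the 76 are given by their counts and median differences at 40 DAP. For sugar and starch metabolism 2 of 14 genes tested were called lower in rin and 2 higher (median 0.39), for jasmonate synthesis 0 of 5 lower and 2 higher (0.18), and for abscisic acid 1 of 6 lower and 1 higher (0.27). Amino acid and amine metabolism had 2 of 10 lower and 1 higher (0.19), senescence and proteolysis 1 of 7 lower and 1 higher (0.19), and flavonoid synthesis 1 of 3 lower (-1.28). Of 7 genes tested in the photosynthesis list, which also holds the flavonoid gene DFR, none was called (-0.53). Of 6 auxin and gibberellin genes 1 was called lower and 3 higher (1.15). The epidermis list and that of locular gel and parenchyma had 3 genes each and no call, with medians of -0.06 and -0.03, the vascular list 1 of 2 called higher (0.83), and the seed list no gene bright enough to test.

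The 61 probe sets without a symbol were also all lower in rin at 40 DAP, as were 46.5% of all those tested. Those with the largest smaller rise were read in full. Les.1046.1.S1_at had a signal of 11890, 7801 and 9823 in wild type at 40 DAP and 973, 661 and 14.1 in rin, and at 45 DAP rin reached 8610, 1322 and 1283. Its difference at 40 DAP was -5.54 (SE 1.22, adjusted p 0.00399), at least 35.4-fold, and it was -6.65, -6.37 and -3.60 without replicates 1, 2 and 3 of rin in turn. Les.2899.1.S1_at was at 15980, 14840 and 13720 in wild type at 40 DAP and at 3921, 311 and 207 in rin, a difference of -4.55 (SE 0.79, adjusted p 0.000846), or -5.87 and -3.75 without replicates 1 and 3 of rin. In both, rin spanned more than a 10-fold range at 40 DAP, with replicate 1 highest.

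LesAffx.24637.1.S1_at was at 10270, 8639 and 6527 in wild type at 40 DAP and at 1161, 391 and 50.9 in rin (difference -4.87, SE 1.03, adjusted p 0.00314), and the difference was -5.89 and -3.63 without replicates 1 and 3 of rin. LesAffx.69673.1.S1_at was at 1762, 1200 and 1399 in wild type and at 310, 65.3 and 6.59 in rin (difference -4.81, SE 0.95, adjusted p 0.00204, 1 dim array), with -6.11 and -3.34 without the same replicates. In each of these, replicate 1 was the highest of the rin arrays and replicate 3 the lowest.

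Les.244.2.S1_a_at and LesAffx.33607.1.S1_s_at came close to wild type already on replicate 1 of rin at 40 DAP. The former was at 10110, 11260 and 11550 in wild type and at 7452, 1103 and 375 in rin, and the latter at 7138, 7014 and 6783 and at 5021, 1222 and 475. Their differences were -2.91 (SE 0.84, adjusted p 0.0189) and -2.29 (SE 0.69, adjusted p 0.0244), and without replicate 3 of rin they were -1.93 and -1.49 and no longer called. Without replicate 1 they were -4.09 and -3.20. Both rose somewhat more in rin (4.89 and 4.37) than in wild type (4.76 and 3.99). This order leans on replicate 2 of rin at 35 DAP, the array with a log2 3' to 5' ratio of 1.84. Signals in rin at that age were 277, 124 and 422 for the former and 303, 139 and 410 for the latter. The order was not tested without that array. Les.4463.1.S1_s_at was at 3801, 3802 and 2626 in wild type and 71.8, 12.6 and 4.30 in rin (-7.74, SE 0.69, adjusted p 4.35e-06, at least 80.2-fold with 2 dim arrays), and the difference was -8.84 and -6.81 without replicates 1 and 3 of rin. In rin at 45 DAP it stayed at 309, 154 and 193.

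The 76 are not 76 independent genes. They carry 70 different numbers in their probe set IDs, and 6 numbers occur in 2 probe sets each. Within those 6 pairs the differences at 40 DAP had the same sign, for example -4.05 and -3.33 for LesAffx.4854.1.S1_at and LesAffx.4854.2.S1_at, both called, and -2.31 and -2.33 for Les.2403.1.S1_at and Les.2403.2.S1_at, both called. Les.244.2.S1_at, with a difference of -3.11 and an adjusted p of 0.0703, was the case where a probe set was not called although its partner was. Of the 76, 4 are of a probe set type (s or x) that may also detect related transcripts, Man4 and Les.4463.1.S1_s_at among them.

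At the end of the series the genotypes were closer than at 40 DAP but mostly not equal, by a description only, since the arrays at 45 DAP chose the probe sets. The median difference in floored signal, rin minus wild type, was -0.49 at 35 DAP, -2.85 at 40 DAP and -1.46 at 45 DAP (range -5.19 to 2.69). All rin arrays lay below all wild-type arrays at 45 DAP for 44 of the 76 (27.7% of those tested) and above for 3 (20.9%), and 29 overlapped. The 3 were ER-SHSP, Les.672.1.S1_at and LesAffx.70264.1.S1_at, named because the count is small. At 35 DAP rin lay below for 12 (5.52%) and above for none (6.93%), and 64 overlapped, counted on the signals as deposited, although signals under 32 have no order.

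Les.672.1.S1_at, like ER-SHSP, was lower in wild type at 45 than at 40 DAP. It was at 2106, 4052 and 2822 in wild type at 40 DAP, then at 216, 428 and 399 at 45 DAP, while rin went from 116, 26.9 and 43.3 to 1656, 497 and 458. At 40 DAP the difference was -5.82 (SE 0.77, adjusted p 0.000116), and at 45 DAP rin was 2.17-fold higher. Rin at 45 DAP had reached or passed the wild-type level of 40 DAP in 10 of the 76, and the median gap between these groups was -1.16.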

How the data were processed

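Biotin-labelled cRNA from total RNA was hybridised to 18 arrays. The deposited table holds linear intensity values, made by the authors with GCOS, a name taken from the submitters' processing notes without a version. Array medians were similar, and how the authors scaled them is unknown here. No probe sequences, coordinates or genome were used.

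The members, the gene lists and the tests were chosen with earlier results of these data known. Values were taken to log2 with no further normalization. A probe set was tested if its signal was not dim, that is, above percentile 30 of the array, on at least 3 arrays. This left 7717, after 108 AFFX and 63 RPTR controls, and 2321 dim probe sets, were set aside. Group means of all 6 groups were estimated together in limma 3.58.1 under R 4.3.3 (lmFit, eBayes with a trend), with Benjamini-Hochberg adjustment over all probe sets tested, 2-sided, called under 0.05. The fit was also run on simulated data, but no result of that run is given here and nothing is read from it. In particular, it is not used to judge how the wider spread between rin arrays affects the calls. Differences in floored signal use the rule's floor of 32.

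Symbols came from the platform annotation (909 probe sets with 1 symbol, 0 with several). They were updated through the RefSeq table of assembly SLM_r2.1 where their identifiers matched (885). A gene's brightest probe set stood for it in the lists. Named were every member with a symbol, the 6 members without a symbol with the largest smaller rise, the 5 called members with the largest difference in each direction, the 3 probe sets nearest the threshold on each side, other probe sets of a named gene, list examples and RIN. ACS2, Les.672.1.S1_at, Les.2810.2.S1_at and the pairs with a shared ID number were named after their values were seen.

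Replicate numbers recur across genotypes but belong to different plants. The correlation of the deviations of same-numbered wild-type and rin arrays at 40 DAP was 0.08, -0.13 and -0.07, so the numbers were not taken to pair the genotypes. Pairing across ages within a genotype was not checked. Alternatives covered normalization, scale, filter, arrays fitted, variance model, a replicate block, arrays left out, and the floor, threshold and summary of the rule. Only 3 arrays per group limit the precision of every value.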

Additional observations from a re-analysis of the deposited data

How the results depend on the processing

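The count of the 76 probe sets called lower in rin at 40 DAP stayed within 1.5 times 56 under all 16 alternatives, with none called higher under any. It was 40 when only the 6 arrays at 40 DAP were fitted, 59 with the replicate block, 53 without a filter and 54 to 59 under the other fits that kept all arrays. With 1 array at 40 DAP left out it ran from 42 to 68, and the median difference from -3.73 to -2.39. The share of all probe sets called is not given for the alternatives, so these shifts are not read as particular to the 76. Of the 22 named probe sets, 14 kept their side of the threshold under all 16 alternatives and none reversed. NOR and abz1, not called, were called under 7 and 4 alternatives, and adjusted p-values of NOR ran from 0.000772 to 0.197. Man4, AAT, Les.1046.1.S1_at and LesAffx.69673.1.S1_at lost their call under 1 alternative each, Les.244.2.S1_a_at under 3 and LesAffx.33607.1.S1_s_at under 6. The cause was not tested.

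The number of probe sets that met the rule was 139 at a threshold of 1.5, which includes all 76, and 35 at 2.5. It was 94 and 52 with floors of 16 and 64, 63 with the median of the arrays, and 62 to 86 with 1 array left out, lowest without replicate 1 of rin at 45 DAP. With rin replicates 2 and 3 at 45 DAP averaged as 1 array it was 86, of which 74 were among the 76. The median share of the rise reached at 40 DAP was 91.8% to 96.0% in wild type and 14.6% to 58.5% in rin with 1 array at 40 DAP left out. In rin it was 46.0% without a floor and 34.1% with a floor of 64. Signals under the floor have no order, so the rises of probe sets dim at 35 DAP are lower bounds.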
